A study of Homo sapiens with 24 samples.

Results

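DoHH2, a human diffuse large B-cell lymphoma (DLBCL) line of the germinal center B-cell type (GCB), was treated for 8 h with 200 nM ITF-B or with DMSO, the solvent. ITF-B is a hydroxamic acid inhibitor of histone deacetylases (HDACi) for which the study names classes I, IIb and IV as targets. The comparison rests on 6 of the 24 arrays of the series, chosen by their sample titles: 3 arrays of cells given ITF-B (DOHH2_ITF-B_exp1 to exp3) and 3 of cells given the matching DMSO (DOHH2_NT-ITF-B_exp1 to exp3), 1 of each from each of 3 independent experiments. The other 18 arrays hold DoHH2 cells with 100 nM ITF-A or its DMSO, and TMD8 cells, a DLBCL line of the activated B-cell type (ABC), with the same 4 conditions, all at 8 h. Both lines are established cultures, each of 1 tumor, so that the arrays describe DoHH2 and TMD8 and not the 2 DLBCL types.

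HDACs take acetyl groups off lysines of histones and of other proteins such as α-tubulin. Acetylated histones go with open chromatin and active transcription, and inhibition of HDACs acts on gene expression within hours, in both directions. In germinal center B cells the repressor BCL6 recruits HDAC3 through its corepressors, and the acetyltransferases CREBBP and EP300 counter it.

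Each array gave 1 intensity for each of 47231 probes, so that precision is limited by the 3 arrays per group. Before normalization the 6 arrays had median intensities of 99.1 to 108. Across probes, arrays of 1 group correlated at r = 0.9956 to 0.9961, and an ITF-B array with a DMSO array at r = 0.969 to 0.971. Levels below are log2 intensities after background correction and quantile normalization, on a scale that runs from 5.65 to 14.50 on these arrays and has its median over all probes at 6.16. A level near that median lies close to the floor. Normalization gave all arrays the same distribution, so that a change is relative to the other genes, and fewer cells and less RNA per cell cannot be told apart. A gene is given by 1 probe, the one of the highest mean over the 24 arrays, and levels of different genes were not set against each other.

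DoHH2 cells were checked against their label. Of 14 germinal center B-cell markers that could be read, 12 had a mean above the median of the array over the 6 arrays. So did 10 of 12 markers of the activated type. That median is itself close to the floor, so that these counts are a weak check of the label. The summed intensity of the germinal center markers was 7599 to 8283 in DoHH2 cells with DMSO and 15474 to 16402 in TMD8 cells with DMSO, so that these markers were not higher in the line of the germinal center type. That of the activated markers was 9512 to 9677 in DoHH2 cells with DMSO and 16337 to 17512 in TMD8 cells with DMSO. CD79B, a chain of the B-cell receptor, was at 10.75, 10.72 and 10.68 with ITF-B and 11.26, 11.31 and 11.41 with DMSO. BCL6, the master repressor of the germinal center, was close to the floor in DMSO cells (6.62, 6.60 and 6.44 with ITF-B and 5.82, 5.81 and 5.85 with DMSO, against 10.63, 10.76 and 10.81 with ITF-B and 9.13, 9.15 and 9.16 with DMSO in TMD8 cells), and so was PAX5, the B-lineage factor (5.88, 6.02 and 6.03 with ITF-B and 6.02, 6.01 and 6.03 with DMSO). For both genes 1 probe was on the array, so that a dim probe and a low transcript cannot be told apart. Of 31 markers of other cell types, 19 lay below the median, the T-cell chains CD3D and CD3E and the erythroid HBB did not pass the test, and 6 rose and 2 fell. The erythroid HBA1, whose sequence is shared with HBA2, rose the most of them (1.14). The summed intensity of these markers was 2313 to 2356 with ITF-B and 2173 to 2186 with DMSO. The part of such cells in the changes below was not tested.

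ITF-B changed a large part of the transcriptome of DoHH2 cells. Of 20046 genes, 3770 rose and 3408 fell at a Benjamini-Hochberg adjusted p under 0.05 (limma, 1 model of the 24 arrays), which is 18.8% and 17.0% of the genes, or 35.8% in both directions together. Over genes, log2 fold changes had a median standard error of 0.0749. Most changes were small: 521 genes rose and 421 fell at least 2-fold. The ITF-B and DMSO arrays did not overlap for 44.8% of all genes tested. Of the 7178 genes called, 7113 moved the same way in each of the 3 experiments, and the changes of 2 experiments correlated across genes at r = 0.912 to 0.918, a description, since genes are not independent. The median change of all genes was 0.00.

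Falls and rises were found at different levels of expression. Genes were put in 10 bins of equal size by their level in the 3 DMSO arrays run for ITF-A in DoHH2, which the comparison did not use. In the highest bin 8.03% of genes fell and 1.65% rose at least 2-fold, whereas in bin 8 from the bottom these shares were 4.79% and 5.79%. In the 6 lowest bins, up to a level of 6.81, 0 genes fell by that much, and 0.250% to 3.69% rose. A gene near the floor has little room to fall on this scale, and few falls can be seen there. Calls of any size followed the level too: 12.7% of genes rose and 3.19% fell in bin 5, and 26.2% and 42.8% in the highest.

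**Figure D1:**
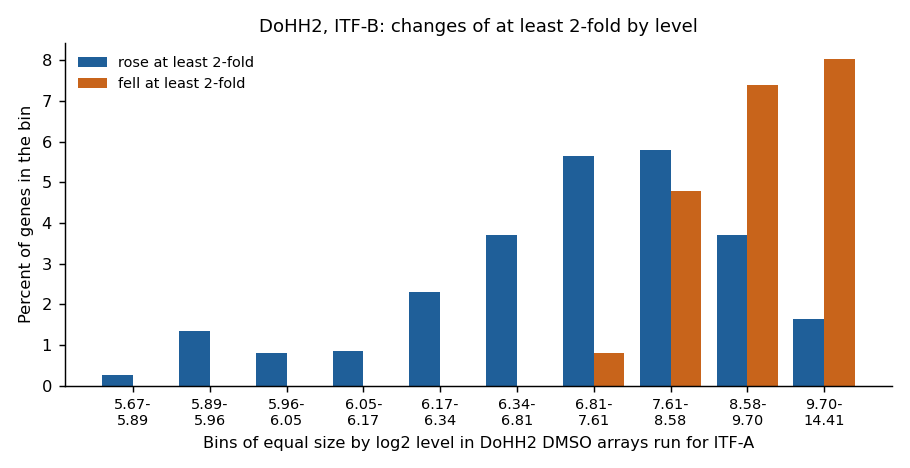
Share of genes (percent, y axis) that rose (blue) or fell (orange) at least 2-fold at an adjusted p under 0.05 with ITF-B in DoHH2 cells, in 10 bins of genes ordered by their log2 level in DoHH2 cells given the DMSO of ITF-A (x axis, lowest and highest level of each bin). Falls are seen only from bin 7 up and reach 8.03% in the highest.

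The metallothionein MT1G had the largest rise of all genes. Metallothioneins are small cysteine-rich proteins that bind zinc and copper, and their genes lie in a cluster on chromosome 16. MT1G stood at 10.72, 10.81 and 10.61 in ITF-B cells and 7.08, 6.81 and 6.85 in DMSO cells, a log2 fold change of 3.80 (standard error 0.112, adjusted p = 5.04e-27). MT1X was at 11.61, 11.56 and 11.52 with ITF-B and 8.57, 8.52 and 8.19 with DMSO (change 3.14, adjusted p = 2.84e-28). MT2A was at 11.88, 12.05 and 11.89 with ITF-B and 9.22, 9.16 and 9.05 with DMSO (change 2.80). For each of these genes all 3 ITF-B arrays lay far above all 3 DMSO arrays, and the gap was many times the spread within a group. MT1H (2.79), MT1F (1.59) and MT1E (1.49) rose as well, while MT1B, MT1M, MT3 and MT4 did not pass the test (-0.13 to 0.20). Metallothionein genes are near-identical in sequence, and a probe for one may also bind RNA of another, so that the family is better described than its single members.

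The zinc genes around them moved both ways. MTF1, the zinc-sensing transcription factor of metallothionein genes, rose by 0.66 (9.36, 9.17 and 9.26 with ITF-B, 8.68, 8.63 and 8.50 with DMSO). SLC30A1, a zinc exporter of the plasma membrane and a target of MTF1, rose by 0.57 (7.53, 7.56 and 7.55 with ITF-B, 6.83, 6.96 and 7.13 with DMSO), and SLC30A3, a zinc transporter of synaptic vesicles, by 2.14. The importers SLC39A8 (-0.86) and SLC39A10 (-0.91) fell. Of 26 genes of metallothioneins and zinc transport, 12 rose and 5 fell, with a median of 0.19 against 0.00 over all genes. These are 46.2% and 19.2% of the list, whose median level with DMSO was 6.95, in bin 7. There 33.1% of genes rose and 32.0% fell.

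The bases before the starts of 3 metallothionein genes that rose are shown since the promoters of this family are known for copies of the metal response element, at which MTF1 binds. Each run is the 150 bases upstream of the start of the RefSeq gene, 5′ to 3′ on the strand of the gene, with the core of that element (TGCNCNC, either strand, overlapping copies counted) in capitals.
MT1X, chr16:56682320-56682469, plus strand, GRCh38.p14: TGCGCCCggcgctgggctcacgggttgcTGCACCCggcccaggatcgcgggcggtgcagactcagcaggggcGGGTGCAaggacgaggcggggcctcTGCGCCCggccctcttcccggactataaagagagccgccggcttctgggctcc
MT2A, chr16:56608434-56608583, plus strand, GRCh38.p14: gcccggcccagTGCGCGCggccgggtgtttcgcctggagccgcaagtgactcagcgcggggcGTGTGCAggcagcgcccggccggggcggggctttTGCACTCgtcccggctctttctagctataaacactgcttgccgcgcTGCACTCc
MT1H, chr16:56669664-56669813, plus strand, GRCh38.p14: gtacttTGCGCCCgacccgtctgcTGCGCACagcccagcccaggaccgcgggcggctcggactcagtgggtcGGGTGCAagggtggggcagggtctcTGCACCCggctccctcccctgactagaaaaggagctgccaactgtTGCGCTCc
The 250 bases upstream hold 4 copies in MT1X, 7 in MT2A and 8 in MT1H. Of 27305 promoters in the RefSeq table, 48.4% hold at least 1 copy and 1.70% at least 4. A match is a string of letters and not a site shown to be bound. Of the 279 genes on the array with at least 4 copies, 50 rose and 54 fell (17.9% and 19.4%), close to the shares over all genes.

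The other large rises were of genes with different known roles. SYT11, a synaptotagmin of vesicle traffic, had 9.98, 10.22 and 10.02 in ITF-B cells and 6.69, 6.59 and 6.71 in DMSO cells (change 3.41, standard error 0.0755, adjusted p = 1.13e-30). SOX18, a transcription factor of vessel and lymphatic development, had 10.36, 10.19 and 10.08 with ITF-B and 7.10, 7.09 and 6.82 with DMSO (change 3.21). PMEL, the matrix protein of pigment granules, had 9.64, 9.57 and 9.47 with ITF-B and 6.47, 6.31 and 6.41 with DMSO (change 3.16). All 3 are best known from other tissues, and their DMSO levels lay in the lower part of the scale. SUCNR1, the receptor for succinate, rose too, with 9.47, 9.52 and 9.47 in ITF-B cells and 6.29, 6.39 and 6.45 in DMSO cells (change 3.11). TPMT, the enzyme that inactivates thiopurine drugs, had 9.11, 9.38 and 9.07 in ITF-B cells and 6.17, 6.18 and 6.15 in DMSO cells (change 3.02). DACT3, an antagonist of Wnt signaling, had 9.34, 9.30 and 9.24 with ITF-B and 6.39, 6.23 and 6.46 with DMSO (change 2.94). In these genes the DMSO arrays were near the floor and nearly alike, and the fold depends on the background step. With an offset of 16 in place of 50, TPMT was at 3.86 and SUCNR1 at 3.80. IER3, an early gene of stress and growth signals (3.17), CD69, an early activation antigen of lymphocytes (2.84), IFIT2 (3.04), and TUBB2B (3.15) complete the 12 largest rises.

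**Figure D2:**
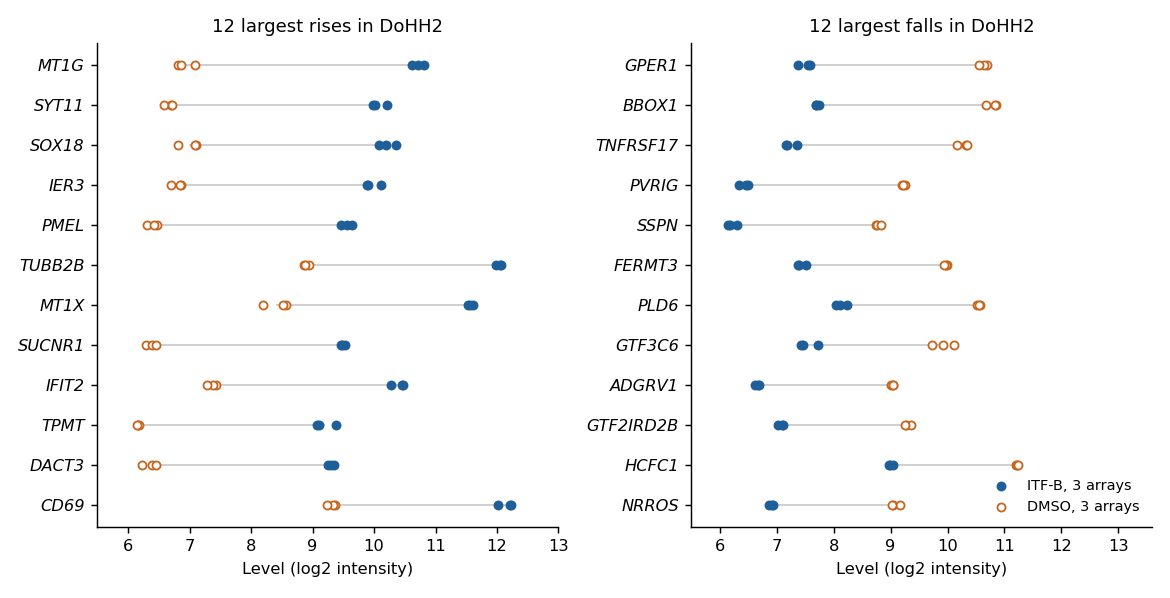
Level of each gene (log2 intensity, x axis) on the 3 ITF-B arrays (blue) and the 3 DMSO arrays (open orange) of DoHH2 cells, for the 12 largest rises and the 12 largest falls; grey lines join the group means. The groups are apart for every gene shown, as the choice of genes required, and arrays of 1 group lie close together.

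The surface receptors GPER1, TNFRSF17 and PVRIG were among the largest falls. TNFRSF17, the BCMA receptor of plasma cells and late B cells, had 7.36, 7.17 and 7.17 in ITF-B cells and 10.16, 10.32 and 10.34 in DMSO cells (change -3.04, standard error 0.0875, adjusted p = 2.08e-27). GPER1, a G-protein coupled estrogen receptor, had 7.58, 7.38 and 7.55 with ITF-B and 10.69, 10.64 and 10.55 with DMSO (change -3.13). BBOX1, the last enzyme of carnitine synthesis, had 7.73, 7.69 and 7.69 with ITF-B and 10.85, 10.83 and 10.68 with DMSO (change -3.09). Levels of these 3 genes were in the upper part of the scale with DMSO and well below with ITF-B, with no overlap. PVRIG, an inhibitory receptor of lymphocytes, came down to the floor (6.49, 6.45 and 6.34 with ITF-B and 9.26, 9.19 and 9.22 with DMSO), as did SSPN, sarcospan of the dystrophin complex (6.17, 6.15 and 6.30 with ITF-B and 8.74, 8.76 and 8.84 with DMSO). Their changes of -2.80 and -2.57 are limited by the floor of the scale. FERMT3, kindlin-3, which activates integrins in blood cells (-2.55), HCFC1, a chromatin cofactor of cell growth (-2.23), GTF3C6, a subunit of RNA polymerase III factor TFIIIC (-2.38), PLD6, a mitochondrial phospholipase (-2.42), ADGRV1, a very large adhesion receptor (-2.38), NRROS (-2.17) and GTF2IRD2B (-2.23) make up the rest of the 12. GTF2IRD2B has a near-identical copy in the genome, and of its other probes one fell (-1.53) and a dimmer one was at 0.20 and did not pass the test.

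Among the targets of the drug class themselves, HDAC3 rose. HDAC3, the catalytic part of the NCOR and SMRT corepressor complexes, had 10.51, 10.82 and 10.86 in ITF-B cells and 9.49, 9.55 and 9.47 in DMSO cells (change 1.23, standard error 0.0767, adjusted p = 1.01e-16). HDAC1 (0.22) and HDAC11 (0.25) were slightly higher and HDAC2 slightly lower (-0.26), all past the test, while HDAC6, the tubulin deacetylase, was at 0.070 and did not pass. SIRT4, a mitochondrial sirtuin, rose by 0.92. Of 18 histone deacetylases and sirtuins, 6 rose and 4 fell (33.3% and 22.2%). Of genes in bin 6, which holds the median level of the list with DMSO (6.74), 22.8% rose and 14.7% fell.

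The opposing enzymes leaned down. CREBBP had 7.82, 7.82 and 8.03 in ITF-B cells and 8.90, 9.02 and 8.95 in DMSO cells (change -1.06, adjusted p = 2.63e-15), and EP300 had 7.50, 7.22 and 7.51 with ITF-B and 8.14, 8.15 and 8.15 with DMSO (change -0.74). Another probe of CREBBP, with a DMSO mean of 6.31, was at -0.14 and did not pass the test. KAT2A, the acetyltransferase GCN5 of the SAGA complex, fell by more, with a change of -1.23. Of 18 acetyltransferases and acetyl-lysine readers, 2 rose (KAT6A 0.50 and NCOA1 0.35) and 10 fell, with a median of -0.25. These are 11.1% and 55.6%, against 35.0% and 35.5% of genes in bin 8, which holds the median level of the list with DMSO (8.25). HEXIM1, an inhibitor of the elongation factor P-TEFb that is known to respond to HDACi and BET inhibitors, was at 0.11 and did not pass the test (6.50, 6.54 and 6.56 with ITF-B, 6.42, 6.43 and 6.42 with DMSO).

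Histone genes rose far more often than they fell. H1-10, a replication-independent linker histone, had 10.26, 10.23 and 10.24 in ITF-B cells and 7.48, 7.47 and 7.39 in DMSO cells (change 2.80, standard error 0.0726). H2BC21 had 8.70, 8.54 and 9.04 with ITF-B and 6.68, 6.32 and 6.60 with DMSO (change 2.23), and H1-2 10.37, 10.61 and 10.37 with ITF-B and 8.45, 8.48 and 8.67 with DMSO (change 1.92). Among the rises were both kinds of histone gene: H3-3B, of the replacement histone H3.3 (2.04), and members of the replication-dependent clusters such as H2BC5 (1.91). Of 50 histone genes 23 rose and 2 fell, the variants MACROH2A1 (-0.46) and H2AZ1 (-0.18), with a median of 0.18. These are 46% and 4% of the list, against 18.8% and 17.0% of all genes. The median level of the list with DMSO was 6.28, in bin 5, where 12.7% of genes rose and 3.19% fell, so that few falls could be seen. Probes of clustered histones can share sequence, and 16 of the 50 genes lay below the median of the array in both groups. The labeling kit primes from poly(A) tails, which replication-dependent histone transcripts largely lack.

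Inhibitors of cyclin-dependent kinases rose or did not pass. CDKN1A (p21), the inhibitor induced by p53 and by HDACi, had 12.68, 12.66 and 12.75 in ITF-B cells and 11.61, 11.49 and 11.52 in DMSO cells (change 1.16, standard error 0.0701, adjusted p = 4.03e-17). CDKN2D (p19), an inhibitor of CDK4 and CDK6, had 8.29, 8.31 and 8.36 with ITF-B and 6.67, 6.57 and 6.67 with DMSO (change 1.68). In both genes every ITF-B array was above every DMSO array, and CDKN1A was already in the upper part of the scale with DMSO. CDKN1C (p57) was at 0.18 with an adjusted p of 0.0463, close to the threshold, and 0.0546 when the experiment number was the block in place of the chip. CDKN1B (p27) was at 0.062 and its arrays overlapped. Of 7 such genes 4 rose and 0 fell, against 18.8% and 17.0% of all genes. Of the 7, 3 lay below the median of the array in both groups, where few falls can be seen. CDKN2C, which the study names among the genes raised in both lines, could not be read.

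The drivers of the G1 to S transition mostly fell. MYC, the growth regulator, had 10.56, 10.19 and 10.06 in ITF-B cells and 11.89, 11.88 and 11.86 in DMSO cells (change -1.61, standard error 0.0949, adjusted p = 1.81e-17). The D cyclins went opposite ways. CCND2 had 10.70, 10.59 and 10.53 with ITF-B and 11.78, 11.70 and 11.67 with DMSO (change -1.11), and CCND3, the D cyclin of germinal center B cells, had 11.00, 11.09 and 10.97 with ITF-B and 9.96, 10.03 and 9.93 with DMSO (change 1.05). E2F2, an activator of S-phase genes, fell (-1.47), while E2F1 was at -0.080 with overlapping arrays. CDC25A, the phosphatase that activates CDK2 (-1.35), CDK6 (-0.98) and CDK4 (-0.83) were among the 10 of 17 genes that fell. The 3 that rose were CCND3, CCNE1 (0.36) and CDK2 (0.35). Thus 17.6% of the list rose and 58.8% fell. Its median level with DMSO was 9.75, in the highest bin, where 26.2% of genes rose and 42.8% fell.

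Genes of DNA replication fell more often than they rose, and those of nucleotide supply split. TYMS, thymidylate synthase, had 8.91, 9.08 and 9.12 in ITF-B cells and 11.14, 11.12 and 11.13 in DMSO cells (change -2.09, standard error 0.0741). RRM2, the small subunit of ribonucleotide reductase, went the other way, with 10.75, 10.92 and 11.04 in ITF-B cells and 9.02, 8.96 and 8.81 in DMSO cells (change 1.97), and so did TK1, thymidine kinase (1.24). These 3 enzymes all make deoxynucleotides. The replicative helicase fell in 6 of 6 subunits, from MCM7 (-1.05) and MCM5 (-1.01) to MCM6 (-0.23), and GINS3, of the helicase cofactor GINS, fell (-1.31). Of 37 replication genes 4 rose and 22 fell (10.8% and 59.5%), with a median of -0.24. In bin 9, which holds the median level of the list with DMSO (9.25), 34.4% of genes rose and 38.2% fell.

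Mitosis genes leaned the same way (7 rose and 21 fell of 37, median -0.25). These are 18.9% and 56.8%, against 34.4% and 38.2% of genes in bin 9, which holds the median level of the list with DMSO (8.99). FOXM1, the transcription factor of G2 and M phase genes, fell (-0.94), and so did UBE2C, of the anaphase promoting complex (-0.90). PTTG1 (securin, 1.12) and NEK2, a centrosomal kinase (1.17), rose.

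**Figure D3:**
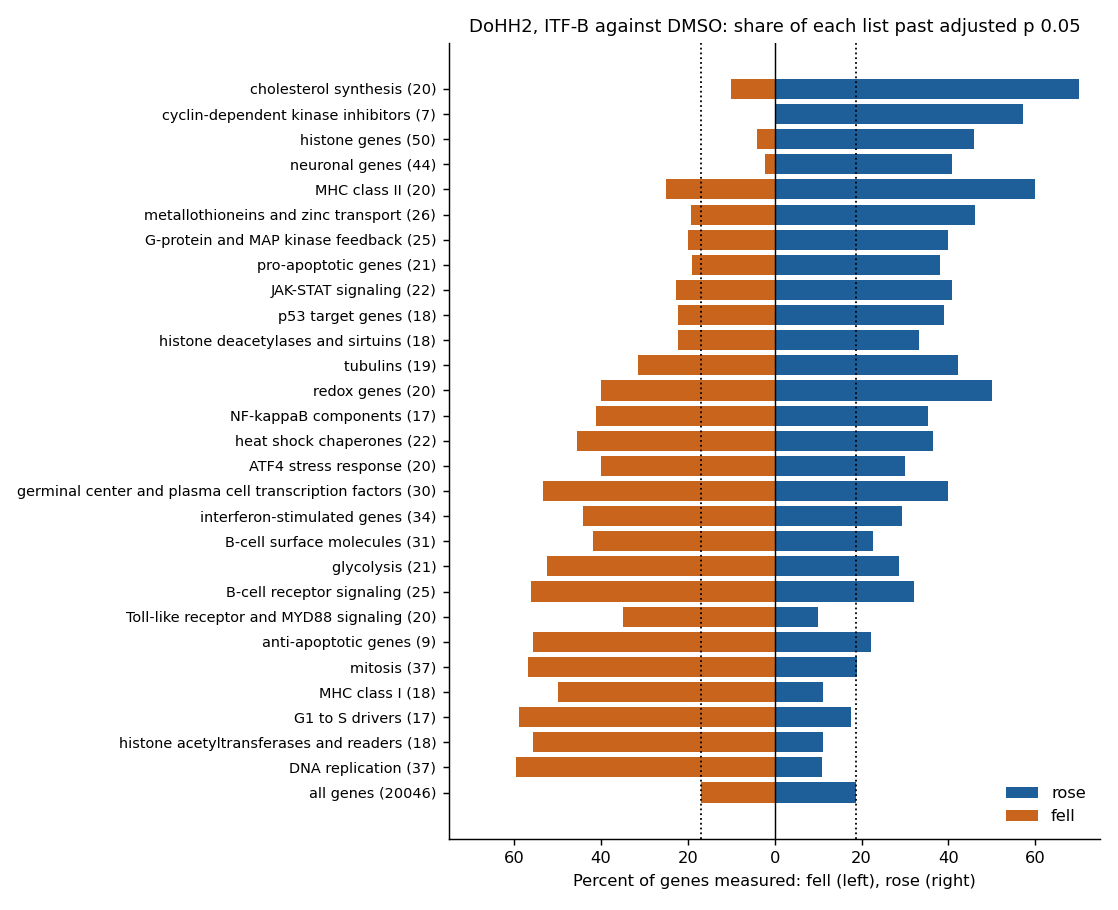
Share of the measured genes of each list (number in brackets) that rose (blue, to the right) or fell (orange, to the left) at an adjusted p under 0.05 with ITF-B in DoHH2 cells, ordered by the difference; dotted lines mark the shares over all 20046 genes (18.8% and 17.0%). Cholesterol synthesis, with 14 of 20 genes up, and DNA replication, with 22 of 37 down, are at the opposite ends of the lists. The shares over all genes include genes near the floor, and lists differ in level.

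Apoptosis genes of both kinds changed. BCL2L1 (BCL-XL), a survival gene, had 8.69, 8.59 and 8.72 in ITF-B cells and 9.82, 9.80 and 9.82 in DMSO cells (change -1.15, standard error 0.0818). BCL2, which a translocation places under an immunoglobulin enhancer in many GCB lymphomas, had 7.84, 7.55 and 7.79 with ITF-B and 8.11, 8.01 and 8.09 with DMSO, a small fall (-0.35). MCL1, the survival factor of germinal center B cells, rose by 0.66 (9.97, 10.04 and 10.01 with ITF-B, 9.28, 9.32 and 9.43 with DMSO). CFLAR (c-FLIP), which blocks death receptors, fell (-1.30). The survival genes thus did not move as one: 2 of 9 rose and 5 fell (22.2% and 55.6%). Genes in bin 8, which holds the median level of the list with DMSO (8.56), rose in 35.0% and fell in 35.5%.

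On the other side, BMF, a BH3-only killer protein, had 8.52, 8.46 and 8.49 in ITF-B cells and 7.33, 7.17 and 7.05 in DMSO cells (change 1.31). APAF1 (1.22) and CASP9 (1.09), which form the apoptosome, rose together, as did the BH3-only genes PMAIP1 (0.86) and BIK (0.83). BID, which links death receptors to mitochondria, fell (-1.43), and so did FAS (-0.50). Of the other probes of BID one fell (-1.11) and a dimmer one was at -0.17 and did not pass. BCL2L11 (BIM) was at -0.16 and did not pass. Of 21 pro-apoptotic genes 8 rose and 4 fell (38.1% and 19.0%). Genes in bin 7, which holds the median level of the list with DMSO (7.13), rose in 33.1% and fell in 32.0%. Of 18 p53 target genes 7 rose and 4 fell (38.9% and 22.2%). Their median level with DMSO was 7.84, in bin 8, where 35.0% of genes rose and 35.5% fell. GADD45A (1.18) and SESN1 (0.74) were among the rises and AEN (-0.92) and TP53I3 (-0.54) among the falls. MDM2 at 0.055 and BBC3 (PUMA) at -0.14 were both short of the test.

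More genes of B-cell receptor signaling fell than rose. Antigen bound to the receptor (immunoglobulin with CD79A and CD79B) is passed on by the kinases LYN, BLK, SYK and BTK and the adaptor BLNK to PLCG2, Ras and NF-κB. BTK had 9.04, 8.92 and 8.78 in ITF-B cells and 10.19, 10.13 and 10.12 in DMSO cells (change -1.23, standard error 0.0799, adjusted p = 3.24e-16). SYK had 9.29, 9.28 and 9.25 with ITF-B and 10.17, 10.15 and 10.07 with DMSO (change -0.86). BLK fell (-1.56), as did BLNK (-0.62) and CD79B (-0.61). RASGRP3, the exchange factor that links the receptor to Ras, fell the most of this group, with 7.12, 7.12 and 6.98 in ITF-B cells and 9.23, 9.13 and 9.17 in DMSO cells (change -2.10). LYN, which both starts and restrains the signal, rose (11.62, 11.59 and 11.55 with ITF-B and 10.79, 10.65 and 10.63 with DMSO, change 0.89), as did the related kinase FYN (0.95). Of 25 genes 8 rose and 14 fell (32% and 56%). In bin 9, which holds the median level of the list with DMSO (8.73), 34.4% of genes rose and 38.2% fell.

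In the Toll-like receptor arm, IRAK1, the kinase below MYD88, had 8.70, 8.76 and 8.81 in ITF-B cells and 10.81, 10.91 and 10.85 in DMSO cells (change -2.10, standard error 0.0739). MYD88, the adaptor itself, had 7.21, 7.29 and 7.31 with ITF-B and 8.32, 8.22 and 8.20 with DMSO (change -0.97). IRAK2, a related kinase, rose by 1.25. The receptors TLR7 (-0.088) and TLR9 (-0.17) did not pass the test. Of 20 genes 2 rose and 7 fell (10% and 35%). In bin 7, which holds the median level of the list with DMSO (6.99), 33.1% of genes rose and 32.0% fell. The share of falls was thus near that of genes at this level, and that of rises lower.

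NF-κB genes moved both ways. NFKB1, the p50 precursor, had 10.68, 10.45 and 10.60 in ITF-B cells and 11.61, 11.59 and 11.63 in DMSO cells (change -1.03, standard error 0.0791). NFKBIA (IκBα), an inhibitor that NF-κB itself induces, had 12.93, 12.90 and 12.90 with ITF-B and 11.94, 11.96 and 12.01 with DMSO (change 0.94). NFKBIZ, a nuclear IκB protein, had 11.74, 11.77 and 11.92 with ITF-B and 10.55, 10.44 and 10.41 with DMSO (change 1.34). Another inhibitor, TNFAIP3 (A20), rose by 0.44, while NFKBIE (IκBε) fell (-1.04). RELA was at 0.051 and did not pass. In all 6 of 17 genes rose and 7 fell (35.3% and 41.2%), and neither the factors nor the inhibitors moved as one. In bin 8, which holds the median level of the list with DMSO (8.43), 35.0% of genes rose and 35.5% fell. The counts were thus near those of genes at that level.

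Of the JAK-STAT genes, STAT3 rose and STAT5A and STAT6 fell. STAT3 had 9.35, 9.42 and 9.50 in ITF-B cells and 8.58, 8.41 and 8.30 in DMSO cells (change 0.997). STAT5A had 7.49, 7.36 and 7.61 with ITF-B and 8.95, 8.83 and 8.92 with DMSO (change -1.41, standard error 0.0734). STAT6, the factor of interleukin-4 signaling, had 8.12, 7.98 and 8.11 with ITF-B and 9.21, 9.23 and 9.32 with DMSO (change -1.19). STAT4 (0.87) and JAK1 (0.75) were among the 9 of 22 that rose, and SOCS2, a feedback inhibitor (-0.93), among the 5 that fell. These are 40.9% and 22.7%, against 33.1% and 32.0% of genes in bin 7, which holds the median level of the list with DMSO (7.33).

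Transcription factors of B-cell identity changed more often than not (12 rose and 16 fell of 30, median -0.28). These are 40% and 53.3%, against 35.0% and 35.5% of genes in bin 8, which holds the median level of the list with DMSO (8.48). The inhibitors of DNA binding ID3 and ID2, which hold back E proteins such as TCF3, rose the most: ID3 had 10.77, 10.87 and 10.77 in ITF-B cells and 8.14, 8.37 and 8.16 in DMSO cells (change 2.58, standard error 0.0763, adjusted p = 5.12e-27). ID2 had 9.82, 9.92 and 10.01 with ITF-B and 7.24, 7.51 and 7.67 with DMSO (change 2.44), and ID1 rose by 1.06. TCF3 itself fell (-0.59), and TCF4, another E protein, rose slightly (0.22, adjusted p = 0.0316, and 0.106 with the smaller offset). IRF8, a factor of germinal center B cells, rose by 1.49. LMO2, a germinal center marker, had 7.47, 7.72 and 7.63 in ITF-B cells and 6.63, 6.41 and 6.49 in DMSO cells (change 1.10), and BCL6 rose by 0.73.

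MYB, a factor of progenitor and cycling cells, had 9.13, 9.43 and 9.20 in ITF-B cells and 11.01, 11.03 and 11.03 in DMSO cells (change -1.77). IKZF1 (Ikaros) fell (-0.87), and so did PRDM1 (BLIMP1), the plasma cell repressor (9.83, 9.43 and 9.46 with ITF-B and 9.95, 10.04 and 10.02 with DMSO, change -0.43). IRF4, which germinal center B cells switch on as they leave, rose by 0.66. BATF, a marker of the activated type, fell (-1.59). PAX5 was at -0.045 and BACH2 at -0.023, both short of the test and near the floor.

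On the cell surface 7 genes rose and 13 fell of 31 (22.6% and 41.9%). In bin 8, which holds the median level of the list with DMSO (8.33), 35.0% of genes rose and 35.5% fell. GPR183 (EBI2), which guides B cells within the follicle, had 9.83, 9.39 and 9.68 in ITF-B cells and 11.80, 11.86 and 11.75 in DMSO cells (change -2.17). CD83, a marker of light zone B cells, rose, with 11.34, 11.28 and 11.36 in ITF-B cells and 9.50, 9.44 and 9.38 in DMSO cells (change 1.89, standard error 0.0775). MS4A1 (CD20), the target of rituximab, had 6.71, 6.70 and 6.77 with ITF-B and 7.77, 7.62 and 7.77 with DMSO (change -0.99). TNFRSF13B (TACI) fell (-1.20), as did CD27 (-1.78) and CXCR4, the dark zone chemokine receptor (-0.53). With TNFRSF17 the fall took 2 of the 3 receptors of BAFF and APRIL by more than 2-fold, and the third, TNFRSF13C, by less (-0.38). The costimulatory CD86 was at 0.66 by its brightest probe by its other probes at 1.04 and -0.49, all past the test, so that 2 probes rose and 1 fell.

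The genes of antigen presentation parted by class. Of 20 MHC class II genes 12 rose and 5 fell (60% and 25%). In bin 9, which holds the median level of the list with DMSO (9.41), 34.4% of genes rose and 38.2% fell. HLA-DMA, of the peptide loader, had 10.56, 10.46 and 10.52 in ITF-B cells and 9.60, 9.51 and 9.39 in DMSO cells (change 1.01). Rises of the class II chains were small, such as HLA-DPA1 (0.44) and the invariant chain CD74 (0.34). CIITA, the master activator of these genes, fell, with 7.20, 7.24 and 7.05 in ITF-B cells and 7.88, 7.87 and 7.69 in DMSO cells (change -0.65), and so did RFX5, of the complex that recruits it (-0.90). The class II genes that rose and their activators thus moved in opposite directions at 8 h. HLA-DRB4 (0.59) is not settled, since 2 other probes were at -0.11 and -0.043 and HLA-DRB genes are near-identical and vary between genomes. In class I, 2 of 18 genes rose and 9 fell, among the falls the immunoproteasome subunits PSMB10 (10.41, 10.20 and 10.16 with ITF-B, 12.12, 12.11 and 12.05 with DMSO, change -1.84) and PSMB8 (-1.13), and the peptide transporter TAP1 (-0.82). B2M was at 0.021 and HLA-B at -0.16, both short of the test. The class I counts are 11.1% up and 50% down, and the median level with DMSO was 10.12, in the highest bin. There 26.2% of genes rose and 42.8% fell, so that the share of falls was near that of bright genes.

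Interferon-stimulated genes moved both ways. These genes are switched on by interferons through response elements in their promoters, and many act against viruses. IFIT2 had 10.46, 10.28 and 10.47 in ITF-B cells and 7.42, 7.37 and 7.29 in DMSO cells (change 3.04, standard error 0.0798, adjusted p = 1.32e-28). IFIT1 had 10.69, 10.54 and 10.55 with ITF-B and 8.46, 8.19 and 8.05 with DMSO (change 2.37, with another probe near the floor at 0.20), and HERC5, the ligase of ISG15, rose by 2.03. Both IFIT proteins bind viral RNA. ISG15, a ubiquitin-like modifier, had 10.57, 10.45 and 10.54 in ITF-B cells and 9.77, 9.68 and 9.61 in DMSO cells (change 0.84). OAS2, an RNA sensor, went down, with 8.79, 8.39 and 8.64 in ITF-B cells and 10.60, 10.41 and 10.28 in DMSO cells (change -1.82), and so did TRIM22, an antiviral ligase, with 7.03, 6.95 and 7.07 in ITF-B cells and 8.46, 8.46 and 8.21 in DMSO cells (change -1.36). Within the OAS family OASL (1.04) and OAS1 (0.46) rose while OAS2 fell and OAS3 was at 0.14, short of the test. Of 34 genes 10 rose and 15 fell (29.4% and 44.1%), with a median of 0.01, so that the median hides both movements. At the median level of the list with DMSO (8.31, in bin 8), 35.0% of genes rose and 35.5% fell.

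The upstream bases of 3 of these genes that rose (IFIT1, ISG15 and HERC5) and 2 that fell (IFI44L -0.97 and GBP1 -1.08, chosen after their values were seen) are shown since genes with an interferon response motif stood on both sides. Each run is the 150 bases before the RefSeq start on the strand of the gene. Capitals mark GAAA followed after 2 bases by another GAAA, on either strand, overlaps counted.
IFIT1, chr10:89392473-89392622, plus strand, GRCh38.p14: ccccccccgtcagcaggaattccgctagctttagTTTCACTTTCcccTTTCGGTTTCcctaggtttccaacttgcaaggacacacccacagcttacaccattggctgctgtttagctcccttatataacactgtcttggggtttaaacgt
ISG15, chr1:1013347-1013496, plus strand, GRCh38.p14: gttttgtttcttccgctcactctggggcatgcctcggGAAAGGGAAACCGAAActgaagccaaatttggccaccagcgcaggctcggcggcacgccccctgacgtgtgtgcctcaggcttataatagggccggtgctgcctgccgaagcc
HERC5, chr4:88456969-88457118, plus strand, GRCh38.p14: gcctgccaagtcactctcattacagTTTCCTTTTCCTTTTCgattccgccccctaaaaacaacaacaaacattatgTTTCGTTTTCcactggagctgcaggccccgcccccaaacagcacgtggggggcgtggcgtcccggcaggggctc
IFI44L, chr1:78620298-78620447, plus strand, GRCh38.p14: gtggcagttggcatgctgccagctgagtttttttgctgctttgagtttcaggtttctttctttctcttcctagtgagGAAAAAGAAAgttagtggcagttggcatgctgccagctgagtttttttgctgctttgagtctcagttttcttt
GBP1, chr1:89065209-89065358, minus strand, GRCh38.p14: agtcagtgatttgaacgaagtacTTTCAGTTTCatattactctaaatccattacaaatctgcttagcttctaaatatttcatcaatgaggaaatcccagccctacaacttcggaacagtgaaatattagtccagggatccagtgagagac
Within 250 bases upstream this motif was in 6 of 7 genes of the list that rose in 4 of 11 that fell and in 5 of 9 that were not called, among the 27 in the RefSeq table. It was found in 3.07% of the 27305 promoters. Of the 404 genes on the array that hold it, 68 rose and 76 fell (16.8% and 18.8%), close to the shares over all genes. No match says only that these letters are not in the window.

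Of 25 genes of G-protein and MAP kinase feedback 10 rose, 5 fell and 10 did not pass the test. The shares of 40% and 20% stand beside 33.1% and 32.0% of genes in bin 7, which holds their median level with DMSO (6.87). DUSP5, a nuclear phosphatase of ERK, had 10.64, 10.76 and 10.69 in ITF-B cells and 8.56, 8.48 and 8.47 in DMSO cells (change 2.19, standard error 0.0776). DUSP2, of the same family, had 9.49, 9.80 and 9.73 with ITF-B and 8.21, 8.28 and 8.20 with DMSO (change 1.44), and RGS2, which turns off G proteins, rose by 1.24. RGS19 (-1.44) and RASGRP2, an activator of Rap (-1.09), fell.

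Tubulins moved both ways within each chain. TUBB2B, a β-tubulin best known from neurons, had 12.05, 12.07 and 11.99 in ITF-B cells and 8.86, 8.94 and 8.87 in DMSO cells (change 3.15, standard error 0.0652). TUBB4A (2.01), TUBB4B (1.53) and TUBB3, the neuronal βIII chain (10.96, 11.01 and 10.75 with ITF-B, 9.50, 9.67 and 9.48 with DMSO, change 1.35), rose too. TUBB, the main β chain of cycling cells, fell, with 11.34, 11.25 and 11.24 in ITF-B cells and 12.42, 12.34 and 12.29 in DMSO cells (change -1.07). The α chains TUBA1A (-0.49), TUBA1B (-0.76) and TUBA1C (-0.73) fell with it, whereas TUBA4A rose by 0.34. Of 19 tubulins 8 rose and 6 fell (42.1% and 31.6%), and genes of 1 chain are near-identical over their coding parts. Of genes in bin 9, which holds the median level of the list with DMSO (8.89), 34.4% rose and 38.2% fell. TUBA3D (-0.82) fell on 1 probe, and another, near the floor, was at 0.072.

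Of 44 neuronal genes 18 rose and 1 fell (40.9% and 2.27%, against 18.8% and 17.0% of all genes). Their median level with DMSO was 6.15, close to the floor. In the bin of that level (bin 4) 8.03% of genes rose and 1.35% fell, so that few falls could be seen. After SYT11 came VAMP1, a vesicle protein (1.74, with its other probes at 0.60, past the test, and -0.068), and PRPH, a neuronal intermediate filament (1.59). UCHL1, a deubiquitinase that germinal center B cells also express, was the gene that fell (-0.38). Defining genes of neurons such as SNAP25 (-0.021), GAP43 (0.056) and NEFL (0.073) did not pass the test, and 13 of the 44 lay below the median of the array in both groups.

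Cholesterol synthesis had the highest share of rises of the lists, 14 of 20, with 2 falls and a median of 0.44. These are 70% and 10%, against 34.4% and 38.2% of genes in bin 9, which holds the median level of the list with DMSO (8.83). IDI1, the isopentenyl isomerase, had 9.63, 9.78 and 10.23 in ITF-B cells and 8.19, 8.46 and 8.25 in DMSO cells (change 1.58). HMGCS1, the synthase before the rate-limiting step, had 10.55, 10.92 and 10.96 with ITF-B and 9.49, 9.50 and 9.81 with DMSO (change 1.21). INSIG1 (0.94) and SREBF1 (1.21), of the sterol-sensing system, rose as well, while FDPS fell (-0.58) with PMVK (-0.40). SREBF2, the regulator of the pathway, was at -0.0024 and did not pass.

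Of 21 glycolysis genes 6 rose and 11 fell (28.6% and 52.4%). The median level of the list with DMSO, 10.44, lies in the highest bin, where 26.2% of genes rose and 42.8% fell. HK2, a hexokinase of proliferating cells, had 8.16, 8.08 and 8.37 in ITF-B cells and 9.89, 9.60 and 9.41 in DMSO cells (change -1.43), and LDHA fell (-0.85). PFKP was at -1.16, with another probe, near the floor, at 0.081. Against these, the glucose transporter SLC2A3 rose (9.58, 9.76 and 9.63 with ITF-B, 7.93, 7.86 and 7.74 with DMSO, change 1.81), and so did ALDOC, the brain aldolase (1.55).

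Stress genes rose and fell. In bin 9, which holds the median DMSO levels of the redox genes (9.34) and chaperones (9.14), 34.4% of genes rose and 38.2% fell. In bin 8, which holds that of the ATF4 list (8.32), these shares were 35.0% and 35.5%. Redox genes had 50% and 40%, chaperones 36.4% and 45.5%, and the ATF4 list 30% and 40%. TXNIP, the inhibitor of thioredoxin and of glucose uptake, had 11.89, 11.51 and 11.87 in ITF-B cells and 9.82, 9.80 and 9.78 in DMSO cells (change 1.96). NQO1, a target of NRF2, had 7.98, 7.93 and 8.13 with ITF-B and 9.41, 9.66 and 9.67 with DMSO (change -1.57). KEAP1, the repressor of NRF2, was at -1.69, with another of its 3 probes at -1.59 and the third, at the floor, at 0.050. SOD2 rose by 0.70, while GSR (-0.67) and TXN (-0.23) fell, and of 20 redox genes 10 rose and 8 fell. DDIT4 (1.76) and ATF3 (1.81, with the other 2 probes, at the floor, at -0.074 and 0.13) rose, but ATF4 itself was at 0.0012 and the ATF4 list counted 6 rises and 8 falls of 20. Of 22 chaperones 8 rose, such as BAG3 (1.38) and HSPA1B (1.49, near-identical to HSPA1A at 0.10), and 10 fell, such as the mitochondrial HSPE1 (-0.92) and DNAJA1 (-0.99).

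TMD8 cells given the same dose for the same time were used to ask where the response of DoHH2 differed. In TMD8 cells 19.3% of genes rose and 17.4% fell. The change in DoHH2 minus the change in TMD8 was called higher for 10.8% and lower for 11.8% of the 20046 genes (limma, adjusted p under 0.05), and it was at least 1 on the log2 scale for 581 of these 4520 genes. Of 5132 genes called in both lines 4734 moved the same way and 398 moved in opposite ways, 210 of them up in DoHH2 and 188 down. The DMSO arrays of the lines were separate, so that the changes share no control.

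IFIT1 and IFIT2 had the 2 largest differences of the genes higher in DoHH2. IFIT1 stood at 7.11, 6.96 and 7.05 in TMD8 cells with ITF-B and 8.98, 8.96 and 8.70 in TMD8 cells with DMSO, a fall of opposite direction to that in DoHH2 (2.37 in DoHH2 and -1.84 in TMD8, difference 4.21, standard error 0.131, adjusted p = 2.20e-25). IFIT2 changed by 3.04 in DoHH2 and -1.12 in TMD8 (difference 4.16) and ISG15 by 0.84 and -1.84 (difference 2.68). Of the 34 interferon-stimulated genes 2 rose and 29 fell in TMD8 cells, with a median of -1.13, and the difference was higher in DoHH2 for 28 and lower for 0. Genes such as MX1 (-0.59 in DoHH2 and -2.78 in TMD8) fell in both lines.

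**Figure D4:**
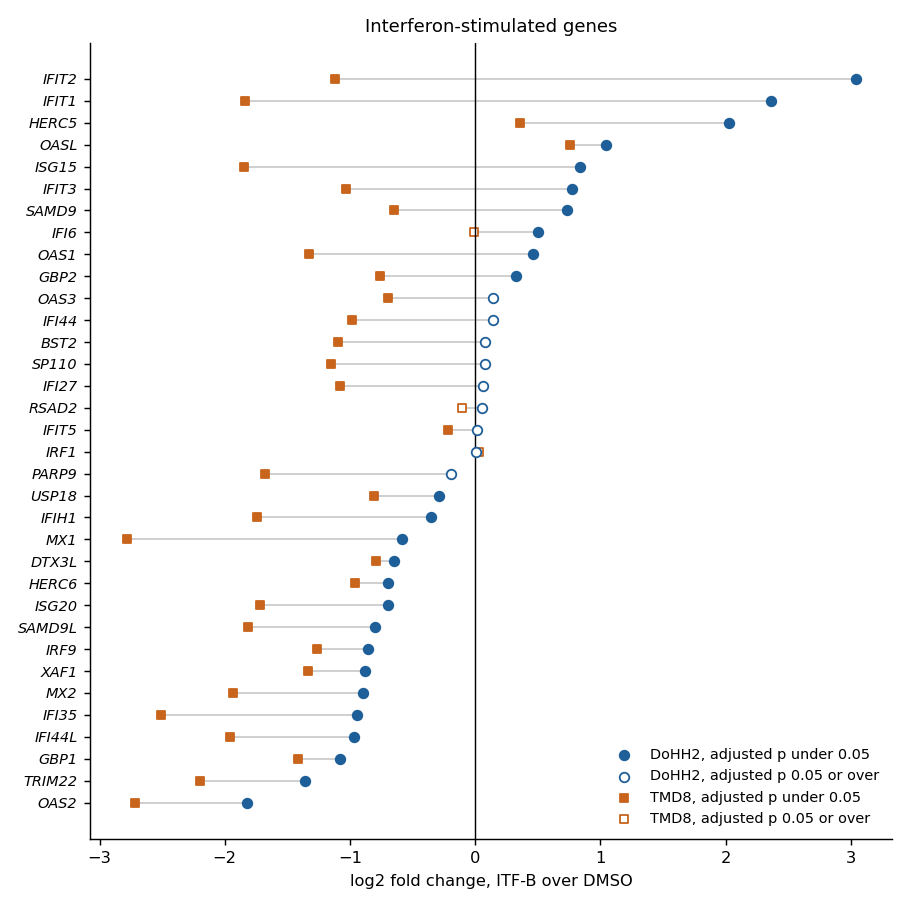
Change with ITF-B over DMSO (log2 fold change, x axis) of 34 interferon-stimulated genes in DoHH2 cells (blue circles) and TMD8 cells (orange squares), ordered by the change in DoHH2; filled symbols have an adjusted p under 0.05. DoHH2 runs from -1.82 (OAS2) to 3.04 (IFIT2), and 28 genes differ between the lines, all higher in DoHH2.

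Early response and NF-κB genes also parted. CD83 stood at 10.20, 10.20 and 10.07 in TMD8 cells with ITF-B and 11.41, 11.48 and 11.57 in TMD8 cells with DMSO (change 1.89 in DoHH2 and -1.33 in TMD8, difference 3.22). NFKBIZ changed by 1.34 in DoHH2 and -0.73 in TMD8 (difference 2.07, adjusted p = 2.33e-19), and ATF3 by 1.81 and -0.28 (difference 2.09). All 3 rose in DoHH2 and fell in TMD8. In the NF-κB list the change was higher in DoHH2 for 13 of 17 genes and lower for 1, NFKB2. DUSP2 (difference 3.30) and DUSP5 (difference 3.10) had the same pattern, with -1.86 and -0.91 in TMD8. LMO2 (difference 2.13) rose in DoHH2 and fell in TMD8 as well (-1.04 in TMD8). The difference of TCF4 (1.96) came mostly from its fall in TMD8 (-1.74). Its slight rise in DoHH2 lost its call with the smaller offset.

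Other genes moved in 1 line. SOX18 was at 0.094 and SUCNR1 at 0.055 in TMD8 cells, both short of the test, so that the differences of 3.11 and 3.06 came from DoHH2. The falls of BBOX1 (difference -3.14) and PVRIG (difference -2.80) had no counterpart in TMD8, where both genes sat near the floor (BBOX1 at 6.04, 5.95 and 5.91 with ITF-B and 5.85, 5.87 and 6.02 with DMSO, PVRIG at 5.93, 5.93 and 5.89 with ITF-B and 5.90, 5.93 and 5.91 with DMSO) and could not fall on this scale. Conversely ZCCHC12 (3.87), CAVIN1, a coat protein of caveolae (3.49), AIF1L (3.10) and NACAD (2.59) rose in TMD8 and not in DoHH2, with differences of -3.79, -3.40, -3.12 and -2.50. TENT5C, a poly(A) polymerase of plasma cells, rose in both, by 0.45 in DoHH2 and 2.94 in TMD8 (difference -2.49).

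IGLL1, a surrogate light chain close in sequence to immunoglobulin λ, was at the top of the scale in DoHH2 (14.08, 14.09 and 14.22 with ITF-B and 13.93, 14.11 and 14.24 with DMSO) and fell in TMD8 (8.40, 8.33 and 8.18 with ITF-B and 11.77, 11.75 and 11.88 with DMSO, difference 3.53). Those DoHH2 levels are close to the highest of the scale, and saturation was not tested. The other 2 probes of IGLL1 were near the floor in DoHH2 (DMSO means of 6.07 and 6.30) and did not pass the test (-0.16 and -0.12), so that the value rests on 1 of 3 probes. RNA18SN5, a ribosomal RNA gene, was at 0.30 in DoHH2 and 2.91 in TMD8 (difference -2.61), on a probe whose target has no poly(A) tail.

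**Figure D5:**
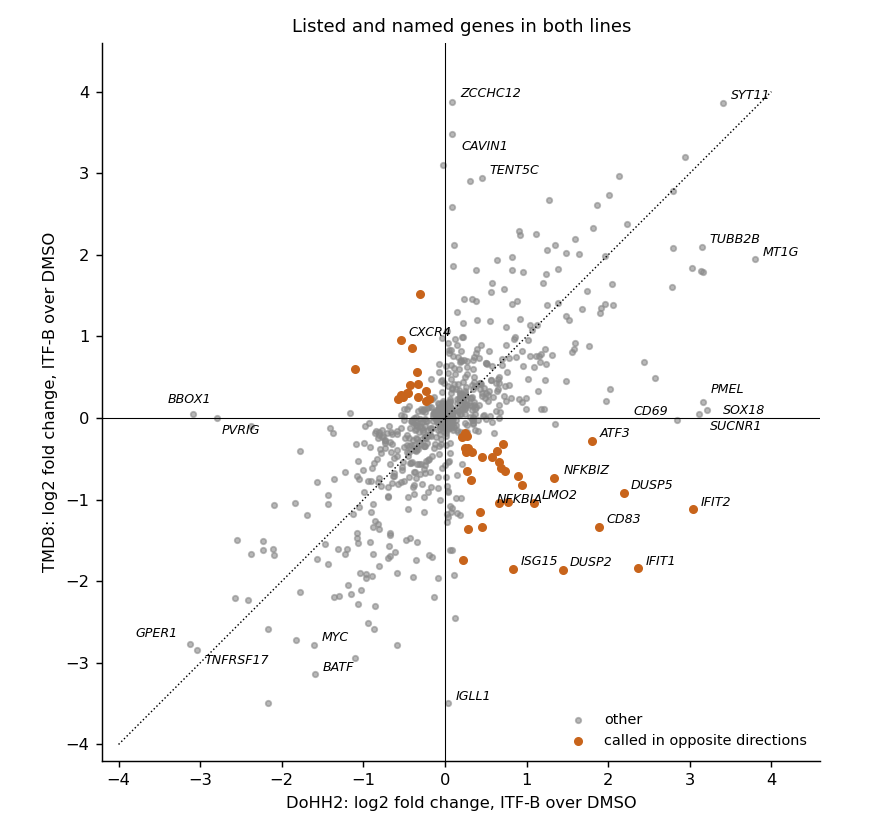
Change with ITF-B over DMSO in DoHH2 cells (x axis) and TMD8 cells (y axis), both as log2 fold changes, for all listed and named genes; orange points passed the test in opposite directions and the dotted line marks equal changes. SYT11 and TNFRSF17 lie near that line, while IFIT1, IFIT2, CD83 and DUSP2 lie in the quadrant up in DoHH2 and down in TMD8.

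The B-cell lists differed in how their changes compared with TMD8. Over all genes, those near the floor included, the change was higher in DoHH2 for 10.8% and lower for 11.8%. Of the lists below, both MHC lists came nearest to these shares. Of the 20 Toll-like receptor genes the change was higher in DoHH2 for 13 and lower for 1, and of the 12 activated B-cell type markers for 10 and 0. It was higher for 11 and lower for 4 of 25 B-cell receptor genes, 17 and 5 of 31 surface molecules, 16 and 5 of 30 transcription factors, 5 and 3 of 14 germinal center markers, 4 and 3 of 20 MHC class II genes, and 2 and 4 of 18 MHC class I genes. MYC fell in both lines, by changes of -1.61 in DoHH2 and -2.78 in TMD8, as did SYK (-0.86 in DoHH2 and -2.31 in TMD8) and CCND2 (-1.11 in DoHH2 and -2.94 in TMD8). Glycolysis ran the other way, with the change lower in DoHH2 for 15 of 21 genes and higher for 2, and so did histones, lower for 24 of 50 and higher for 6. Replication genes were lower in DoHH2 for 18 of 37.

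ITF-A was given to DoHH2 cells at 100 nM for the same time with its own DMSO arrays, and as the doses differ its values are set beside those of ITF-B without a comparison. MT1G was at 3.80 with ITF-B and 3.70 with ITF-A, IFIT2 at 3.04 with ITF-B and 3.14 with ITF-A, TNFRSF17 at -3.04 with ITF-B and -3.07 with ITF-A, and MYC at -1.61 with ITF-B and -1.66 with ITF-A. CDKN1A was at 1.16 with ITF-B and 1.35 with ITF-A.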

How the data were processed

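RNA of 24 cultures was hybridized by the authors to Illumina HumanHT-12 arrays, 1 colour each. The authors deposited a table of intensities that were not normalized, with no detection p-values or control probes, and a table of log2 values that they had quantile normalized, and in which a batch correction is named in the methods without saying what the batch was. The intensities were used, and the log2 table deposited by the authors served as an alternative. They were background corrected (normexp, offset 50), quantile normalized over the 24 arrays and put on the log2 scale. One limma model (limma 3.58.1, R 4.3.3) held 8 groups and the chip, since each of 2 chips carried arrays of every group: in DoHH2 replicate 3 was on chip 1 and replicates 1 and 2 on chip 2, and in TMD8 replicates 2 and 3 were on chip 1 and replicate 1 on chip 2, so that line and chip were associated. Benjamini-Hochberg adjustment ran over the 47231 probes, and the calls were read for 20046 genes. Of the probes, 30113 had 1 symbol in the platform annotation, 8 several and 17110 none, and 20020 genes matched RefSeq (GRCh38.p14) by their Entrez ID. For a gene with several probes, the brightest on average was taken. The script was tested on simulated data. Python 3.11.15 was used for sequences and figures.

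Arrays were grouped by sample title. The experiment number in the titles (exp1 to exp3) pairs arrays, since the study counts these as independent experiments. Same-numbered ITF-B and DMSO arrays deviated together only weakly (correlations of 0.0894, 0.0250 and 0.0673 over 23615 probes). Other pairs were at -0.0303. Deviations from a group mean cancel within the group, so that this value follows from the same-numbered pairs and is no separate reference. The main model therefore has the chip and not the experiment. P-values rest on a spread within groups that was pooled over the 8 groups, of both lines and both compounds. They reflect repeated experiments on these established lines and do not extend to other lines.

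Genes named are the 12 largest rises and falls with no overlap and 1 direction in the 3 experiments, a fixed set of key genes per list, up to 2 largest rises and falls per list, the 8 largest differences to TMD8 in each direction, and up to 10 list members called in opposite directions in the lines. Other list members were named for their role after their values were seen. The members and lists were chosen with earlier results of these data known. Alternatives were the offset, no background correction, the authors' log2 table, no chip term, the experiment as a block, each chip alone, array weights, other samples in the fit, both DMSO sets, dim probes left out, a minimum fold, other probes of a gene, and each array left out. A comparison of promoter sequence between genes that rose and fell was void, as 75.0% of all genes matched a promoter in the RefSeq table.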

Additional observations from a re-analysis of the deposited data

Results flagged for a closer look

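The results below were singled out because the change with ITF-B in DoHH2 cells differed from that in TMD8 cells by limma's test of the difference, with adjusted p-values from 2.24e-27 (IFIT2) to 2.40e-15 (RNA18SN5). Each value is the log2 change in DoHH2 minus that in TMD8, with 3 arrays a group. Higher in DoHH2 were IFIT1 (4.21), IFIT2 (4.16) and ISG15 (2.68), of the interferon response, the phosphatases DUSP2 (3.30) and DUSP5 (3.10), the surface molecules CD83 (3.22) and SUCNR1 (3.06), the transcriptional regulators SOX18 (3.11), LMO2 (2.13), ATF3 (2.09), NFKBIZ (2.07) and TCF4 (1.96), and IGLL1 (3.53, on 1 of 3 probes, the other 2 near the floor in DoHH2). Lower in DoHH2 were ZCCHC12 (-3.79), CAVIN1 (-3.40), BBOX1 (-3.14), AIF1L (-3.12), PVRIG (-2.80), RNA18SN5 (-2.61), NACAD (-2.50) and TENT5C (-2.49).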

How the results depend on the processing

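Counts of calls with ITF-B in DoHH2 cells were 5755 probes up and 5675 down, 3770 genes up and 3408 down, and 2157 genes with a higher and 2363 with a lower change in DoHH2 than in TMD8. A minimum log2 fold change of 1 left 655 and 602 probes, 521 and 421 genes, and 311 and 270 differences, fewer by construction. On chip 1 alone, with 1 array a side in DoHH2 and its spread assumed from other groups, they were 3574 and 3543 probes, 2499 and 2224 genes, and 1216 and 1276 differences, and on chip 2 alone 1304 and 1381 differences, from fewer arrays. Under the other alternatives all 6 counts stayed within 1.5 times. Leaving out 1 array gave 3465 to 3552 genes up, 3162 to 3195 down, 1958 to 2073 higher and 2131 to 2259 lower. With the experiment number as a replicate block they were 5810 and 5694 probes, 3802 and 3417 genes, and 2163 and 2361 differences; of the named genes the block ended the call of CDKN1C only (0.18, adjusted p = 0.0546). Over these alternatives the status of a named gene, called or not called, stayed the same 2996 times. A called gene weakened below the threshold 58 times, and a gene not called passed it 2 times. The calls of the differences held 483 times. Other probes of a gene are not in these counts.

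Other probes of 11 named genes that were called gave the opposite sign: ATF3 -0.074, CCNE1 -0.047, GTF2IRD2B 0.20, HLA-DRB4 -0.11 and -0.043, KEAP1 0.050, MACROH2A1 0.022 and 0.051, NCOA1 -0.040, PFKP 0.081, TUBA3D 0.072, VAMP1 -0.068 and CD86 -0.49. Of these only that of CD86 passed the test (adjusted p = 6.13e-07), and the cause was not tested. Of 97 other probes of genes called, 63 were called in the same direction, 1 in the opposite and 33 in none, 14 of them below the median of the array. The median of the cyclin-dependent kinase inhibitors was 0.90 with dim probes left out. Signal over background limits low genes: levels near the floor cannot show a fall.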

Other observations

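Further genes of the lists described above moved by less. The activated B-cell type markers counted 2 rises and 5 falls of 12 in DoHH2 cells, against 11 falls in TMD8 cells. PIM1, a survival kinase of that type, had 8.69, 8.48 and 8.41 with ITF-B and 8.40, 8.22 and 8.10 with DMSO in DoHH2 (change 0.29), and -0.36 in TMD8. Of the germinal center markers, MYBL1 rose in both lines (0.96 in DoHH2 and 1.79 in TMD8), while CD79B fell in both (-0.61 in DoHH2 and -1.64 in TMD8). UNC93B1, which carries Toll-like receptors to endosomes, fell (-1.06), and MAP3K7 (TAK1), a kinase below those receptors, rose (0.78). In the ATF4 list DDIT3 (CHOP) rose (0.37), whereas CEBPG (-0.80) and XPOT, a tRNA exporter (-0.86), fell. Calreticulin (CALR, 0.57) and HLA-E (0.39) rose, and the sirtuins SIRT1 (-0.32) and SIRT5 (-0.38) fell.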
